A study of Mus musculus with 6 samples.

Results

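A set of 9 genes with much more RNA in Cdh1 knockout than in wild type mouse embryonic stem cells is described here: Nkx6-3, Pou4f2, Cemip, Ano3, Fbp2, Mras, Srgn, Cpe and Adgrb1. They are 9 of 55401 genes in the count table, and they were selected on their large log2 fold change in these same 6 libraries, so their own difference between genotypes is given as a description without a test. All 9 had enough counts to enter the fit of 17325 genes. RNA was sequenced from V6.5 cells, a mouse embryonic stem cell line, that were either wild type (WT, libraries A, B and C) or Cdh1-/- (knockout, libraries A, B and C). Cdh1 encodes E-cadherin, which joins cells to their neighbours and binds beta-catenin inside the cell, and the title of the series asks how it affects the stability and activity of beta-catenin. No treatment is given, and the labels do not say whether the knockout is 1 clone or several, or whether libraries of one genotype came from separate cultures. P-values therefore measure the spread between these libraries, which may be technical. Total counts ran from 18020719 to 23381942 per library. Cdh1 itself was at 559 ± 19.1 CPM (counts relative to library size after TMM scaling, mean ± SD, n = 3) in WT and at 173 ± 9.05 CPM in the knockout (n = 3), lower in every knockout library. Of 10 embryonic stem cell markers 2 rose and 0 fell, where 7.6% of all tested genes were called higher and 5.71% lower (4 called without knockout replicate A, and 1 without WT replicate A, WT replicate B, knockout replicate B or knockout replicate C). They summed to between 4886 and 5317 CPM in WT libraries and between 5526 and 6633 CPM in knockout libraries.

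The 9 genes come from unrelated families. Nkx6-3 and Pou4f2 encode DNA-binding factors with a homeodomain: Nkx6-3 is known from the lower stomach, where it takes part in the formation of hormone-secreting cells, and Pou4f2 (also called Brn3b) directs the formation of retinal ganglion neurons. Cemip breaks down hyaluronan, the long sugar polymer of the matrix between cells, and Srgn encodes serglycin, the proteoglycan core of secretory granules. Adgrb1 encodes an adhesion receptor of the G protein-coupled class that helps cells engulf dying neighbours, and Ano3 encodes a membrane protein of the anoctamin family, best known from neurons. Mras is a small GTPase related to RAS that binds SHOC2 and a protein phosphatase to activate RAF kinases. Fbp2 is the muscle form of fructose bisphosphatase, an enzyme of glucose synthesis, and Cpe (carboxypeptidase E) trims the ends of peptide hormones in granules.

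Promoter windows of 6 of the 9 genes were found in the RefSeq table for GRCm38.p6, each with 250 bases before and 50 bases after an annotated start. Ano3 and Srgn had 2 starts each, which gave 8 windows. Of these, the second starts of Ano3 (43.7% G and C) and Srgn (45.0%) were lowest in G and C and are not printed. The 5 printed windows run from 51.0% to 73.7% and belong to genes that were all higher in the knockout. Each is written 5′ to 3′ on the minus strand, the strand of the gene, with the search motifs in capitals. Every motif was searched on both strands. The core of TCF/LEF sites was searched as CTTTGAA, with CTTTGAT as its second form. The TATA box was searched as TATAAA. The E-box was searched as CACCTG, and the GC box as GGGCGG. Each motif was counted on its own, whether or not it overlapped another. The windows lie at chr7:84086456-84086755 for Cemip, chr9:99436663-99436962 for Mras, chr8:78436598-78436897 for Pou4f2, chr10:62527396-62527695 for Srgn (first start) and chr13:62858351-62858650 for Fbp2.
Cemip: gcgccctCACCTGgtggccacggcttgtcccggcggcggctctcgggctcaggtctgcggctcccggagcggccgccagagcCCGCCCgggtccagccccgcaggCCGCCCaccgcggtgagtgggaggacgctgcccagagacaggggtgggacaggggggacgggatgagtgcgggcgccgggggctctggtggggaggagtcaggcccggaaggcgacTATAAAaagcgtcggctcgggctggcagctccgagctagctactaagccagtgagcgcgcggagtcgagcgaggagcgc
Mras: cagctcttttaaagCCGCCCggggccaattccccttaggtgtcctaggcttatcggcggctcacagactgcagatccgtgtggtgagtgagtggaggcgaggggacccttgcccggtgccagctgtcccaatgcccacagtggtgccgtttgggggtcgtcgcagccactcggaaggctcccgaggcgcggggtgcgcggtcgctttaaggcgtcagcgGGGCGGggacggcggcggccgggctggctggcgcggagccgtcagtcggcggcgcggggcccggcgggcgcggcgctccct
Pou4f2: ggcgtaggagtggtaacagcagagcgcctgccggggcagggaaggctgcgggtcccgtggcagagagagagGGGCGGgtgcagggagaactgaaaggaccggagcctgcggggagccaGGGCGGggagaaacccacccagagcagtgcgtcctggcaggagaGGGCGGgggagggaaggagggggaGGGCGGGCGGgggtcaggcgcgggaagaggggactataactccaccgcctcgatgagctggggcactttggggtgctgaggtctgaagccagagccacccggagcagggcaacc
Srgn: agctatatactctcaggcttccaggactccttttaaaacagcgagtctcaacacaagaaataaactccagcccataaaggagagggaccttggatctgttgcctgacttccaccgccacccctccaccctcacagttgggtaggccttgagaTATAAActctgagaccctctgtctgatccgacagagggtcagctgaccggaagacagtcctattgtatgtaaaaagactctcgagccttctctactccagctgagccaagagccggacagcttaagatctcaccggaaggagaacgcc
Fbp2: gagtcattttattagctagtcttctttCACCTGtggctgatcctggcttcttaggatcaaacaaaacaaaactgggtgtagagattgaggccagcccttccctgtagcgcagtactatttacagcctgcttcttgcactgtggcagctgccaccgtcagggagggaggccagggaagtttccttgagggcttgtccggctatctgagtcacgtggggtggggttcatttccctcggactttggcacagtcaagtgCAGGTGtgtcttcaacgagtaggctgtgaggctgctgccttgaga

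The windows of Cemip, Mras and Pou4f2 were rich in G and C, at 73.7%, 71.7% and 69.7%, above the median of 52.7% over all 32851 windows of the table. Their ratios of observed to expected CpG were 0.829 for Cemip, 0.952 for Mras and 0.563 for Pou4f2, against a median of 0.384. The windows of Srgn and Fbp2 lay near those medians: the first start of Srgn had 51.0% GC and a CpG ratio of 0.420, and Fbp2 had 52.7% and 0.292. The first start of Ano3 had 52.0% GC and a CpG ratio of 0.395, and the second starts of Ano3 and Srgn had 43.7% and 45.0% GC. No base composition was thus shared by these genes.

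None of the 8 windows held CTTTGAA or CTTTGAT, which were present in 8.65% of all windows. GC boxes occurred 5 times in the Pou4f2 window and 2 times each in those of Cemip and Mras, against at least 1 in 35.7% of all windows. TATAAA was found in the windows of Cemip, the first start of Srgn and the second start of Ano3, and in 13.6% of all windows. CACCTG was found 2 times in the Fbp2 window and 1 time each in those of Cemip and the first start of Ano3, and in 20.2% of all windows. These matches describe letters in a short window and do not show that a factor binds there.

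**Figure D1:**
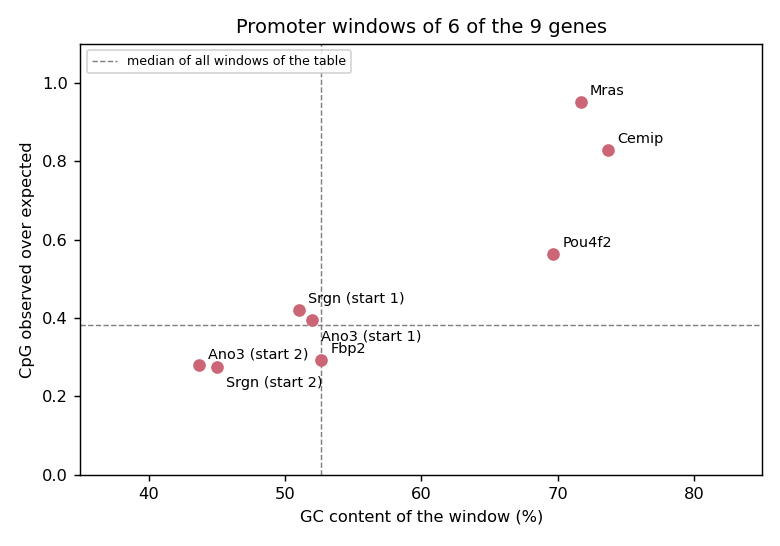
GC content (horizontal axis, percent) against the ratio of observed to expected CpG (vertical axis) in the 300-base promoter windows of 6 genes, with dashed lines at the medians of all 32851 windows. Cemip, Mras and Pou4f2 lie at or above 69.7% GC, and the windows of Srgn, Ano3 and Fbp2 lie between 43.7% and 52.7%.

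In each of the 9 genes every knockout library lay above every WT library, a separation that the choice of genes largely fixes and that held in this direction for 15.7% of all tested genes. Of all tested genes 13.3% were called at an adjusted p under 0.05 by the quasi-likelihood test of edgeR, 7.6% higher and 5.71% lower. Among 1226 called higher that also averaged 50 counts or more and showed separated groups, the 9 took ranks 1 to 6, 8, 11 and 28 by log2 fold change. The choice had no stated limit, and just inside and outside it stood Mras (2.20) and Sox7 (2.18), with Sox17 (2.15) and Tgm1 (2.06) also outside and Srgn (2.17) and Adgrb1 (2.04) inside. In RNA from whole cultures, more cells that express a gene and more RNA per cell cannot be told apart.

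Among the transcription factors, Nkx6-3 (ENSMUSG00000063672.7, chromosome 8, 23153269 to 23158948 in GRCm38, plus strand) was at 2.07, 1.31 and 1.70 CPM in the WT replicates (A, B, C in order, here and below) and at 18.1, 23.4 and 22.2 CPM in the knockout replicates. The knockout libraries lay close together, and the lowest of them was 8.76 times the highest WT library. The mean was 12.5 times that of WT (log2 fold change 3.64, 3.49 to 3.81 when any single library was left out). Pou4f2 (ENSMUSG00000031688.4, chromosome 8, 78433010 to 78436645, minus strand) was at 1.98, 3.94 and 2.30 CPM in WT and at 10.3, 16.9 and 19.5 CPM in the knockout. Its lowest knockout library was A, at 2.61 times the highest WT library. The log2 fold change was 2.51, and 2.32 to 2.86 over the fits without 1 library.

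Of the genes that act outside the cell or in granules, Cemip (ENSMUSG00000052353.13, chromosome 7, 83932857 to 84086502, minus strand) was at 0.630, 1.31 and 0.950 CPM in WT, 14 to 26 counts per library. In the knockout it was at 3.32, 6.64 and 9.84 CPM, so that replicate C held 2.97 times the level of replicate A. The mean was 6.84 times that of WT (log2 fold change 2.78). Srgn (ENSMUSG00000020077.14, chromosome 10, 62493833 to 62527451, minus strand) was at 3.87, 5.66 and 9.30 CPM in WT and at 15.8, 23.7 and 44.9 CPM in the knockout. Both genotypes spread widely, and knockout replicate A stood only 1.70 times above WT replicate C. The log2 fold change of Srgn was 2.17 and moved from 1.67 to 2.58 over the fits without 1 library.

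Cpe (ENSMUSG00000037852.8, chromosome 8, 64592542 to 64693054, minus strand) was at 25.9, 27.8 and 32.9 CPM in WT and at 88.5, 91.8 and 114 CPM in the knockout, 3.40 times the WT mean (log2 fold change 1.77). Its mean count over all libraries was the highest of the 9, though in knockout replicate B Adgrb1 had slightly more (2114 against 2102 counts). The knockout libraries of Cpe were within 1.29 times of each other. Per kilobase of exon Cpe also led, at 46.4 ± 6.58 CPM per kb in the knockout.

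Of the membrane proteins, Adgrb1 (ENSMUSG00000034730.17, chromosome 15, 74516195 to 74589464, plus strand) was at 19.1, 15.4 and 20.1 CPM in WT and at 67.7, 92.3 and 63.9 CPM in the knockout (a log2 fold change of 2.04). It was the 1 gene of the 9 whose lowest knockout library was C and not A. Ano3 (ENSMUSG00000074968.11, chromosome 2, 110655201 to 110950923, minus strand) was at 2.12, 1.36 and 2.35 CPM in WT. In the knockout it was at 8.51 and 8.56 CPM in replicates A and B and at 18.2 CPM in C, which stood apart (log2 fold change 2.59). Mras (ENSMUSG00000032470.17, chromosome 9, 99385420 to 99437381, minus strand) was at 15.2, 15.5 and 17.8 CPM in WT and at 48.2, 89.6 and 84.1 CPM in the knockout (a log2 fold change of 2.20). Its WT libraries lay close together, with a ratio of 1.17 between the highest and the lowest, while knockout replicate A lay below B and C.

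Fbp2 (ENSMUSG00000021456.8, chromosome 13, 62836877 to 62858422, minus strand) was at 0.540, 1.21 and 2.7 CPM in WT, which is 12, 24 and 54 counts, and at 4.09, 6.46 and 10.9 CPM in the knockout. Its WT libraries differed 5.0-fold, and knockout replicate A was 1.51 times WT replicate C. The log2 fold change of 2.28 ranged from 1.85 to 3.05 over the fits without 1 library.

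**Figure D2:**
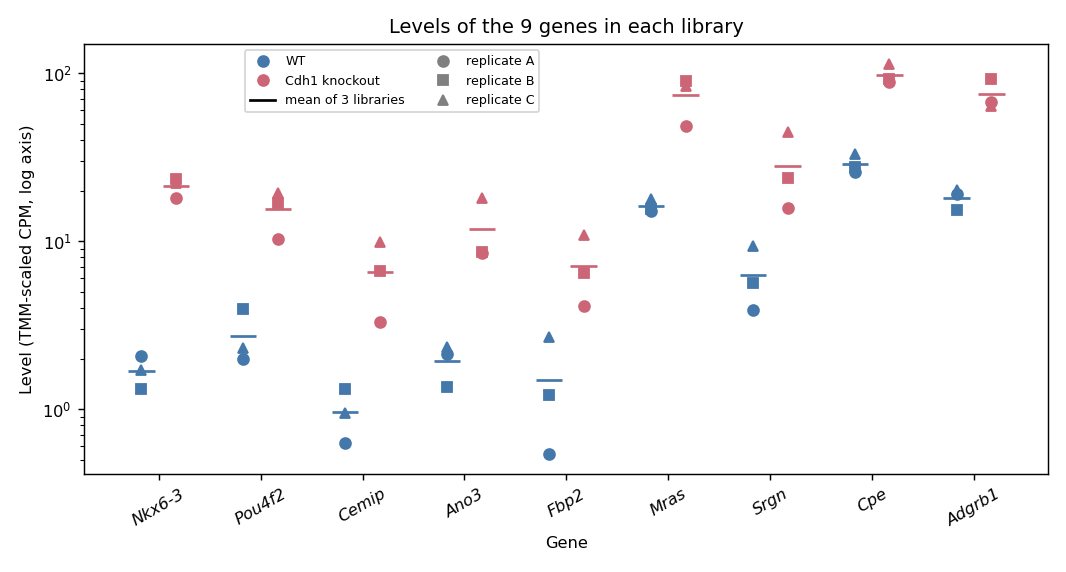
Level of each of the 9 genes (horizontal axis) in every library, in TMM-scaled CPM on a log axis; blue marks are WT, red marks the Cdh1 knockout, shapes the replicates and bars the means of 3 libraries. In all 9 genes the red marks lie above the blue ones, with the narrowest gap in Fbp2 and Srgn.

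Levels of different genes were compared per kilobase of exon. In the knockout Cpe stood alone at the top, from 41.8 to 53.9 CPM per kb over libraries. Srgn (mean 16.0 CPM per kb), Mras (15.3) and Adgrb1 (11.7) followed with ranges that overlapped, and Nkx6-3 (9.49) overlapped Adgrb1. Fbp2 (5.28) and Pou4f2 (4.86) overlapped each other and lay below Nkx6-3, with 8.05 CPM per kb in the highest library of Fbp2 against 8.10 CPM per kb in the lowest of Nkx6-3. Ano3 (1.75) and Cemip (0.928) were lowest, and their ranges overlapped. In WT the order was Cpe (13.6 CPM per kb), Srgn (3.58), Mras (3.35), Adgrb1 (2.86), Fbp2 (1.1), Pou4f2 (0.855), Nkx6-3 (0.757), Ano3 (0.290) and Cemip (0.136). Nkx6-3 thus stood below Fbp2 and Pou4f2 in WT means, with overlapping libraries, and above both in every knockout library.

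For most of these genes libraries of one genotype were not interchangeable, in the knockout and in WT. Replicate A was the lowest knockout library for 8 of the 9 genes, and replicate C the highest for 6, with B the highest for Nkx6-3, Mras and Adgrb1. How many of all tested genes had the same order was not counted, so it may not be particular to these 9. The SD of log2 CPM over the knockout libraries was 0.757 for Srgn, where 2467 tested genes of similar mean count over all 6 libraries (within 1.5 times) had a median of 0.17, which put Srgn at percentile 99.8. It was 0.491 for Mras (percentile 99.1), 0.624 for Ano3 (96.2), 0.780 for Cemip (96.1), 0.697 for Fbp2 (94.3), 0.285 for Adgrb1 (93.4) and 0.481 for Pou4f2 (92.8). Cpe was at 0.198 (82.8) and Nkx6-3 at 0.193 (48.5). The WT libraries also spread widely by this measure. Their SD was 0.624 for Srgn (percentile 99.96), 1.07 for Fbp2 (99.94) and 0.504 for Pou4f2 (97.6). It was 0.205 for Adgrb1 (87.8), 0.394 for Ano3 (87.5), 0.311 for Nkx6-3 (86.5) and 0.178 for Cpe (85.5). For Cemip it was 0.478 (84.9) and for Mras 0.123 (57.1).

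Markers of primitive endoderm, the extraembryonic layer that can form in stem cell cultures, moved with the 9 genes. Of 12 listed markers, 11 rose and 0 fell in edgeR's quasi-likelihood test, against 7.6% of all tested genes called higher. At an unadjusted p under 0.05, 12 were higher. Their summed level was 366, 464 and 489 CPM in the WT libraries and 799, 1039 and 1523 CPM in the knockout libraries. None of the 12 was at 0 in any library. Chromosomes 1 and 14 had median log2 fold changes of -0.33 and 0.53, with 49.8% of the tested genes of chromosome 14 called higher, and outside them 8 of 9 tested markers rose. Sox7, a SOX factor of this lineage on chromosome 14, rose from 2.74 ± 0.993 to 12.4 ± 4.08 CPM (log2 fold change 2.18, adjusted p 0.000153), and Cubn, the endocytic receptor cubilin, from 33.1 ± 13.6 to 113 ± 49.4 CPM (1.77, adjusted p 0.00112; n = 3 each). Knockout replicate A, lowest for 8 of the 9 genes, had the lowest sum, and replicate C, highest for 6, the highest. This order was not counted over all tested genes, and other genes may share it. The part of these cells or genes in the values of the 9 genes was not tested.

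**Figure D3:**
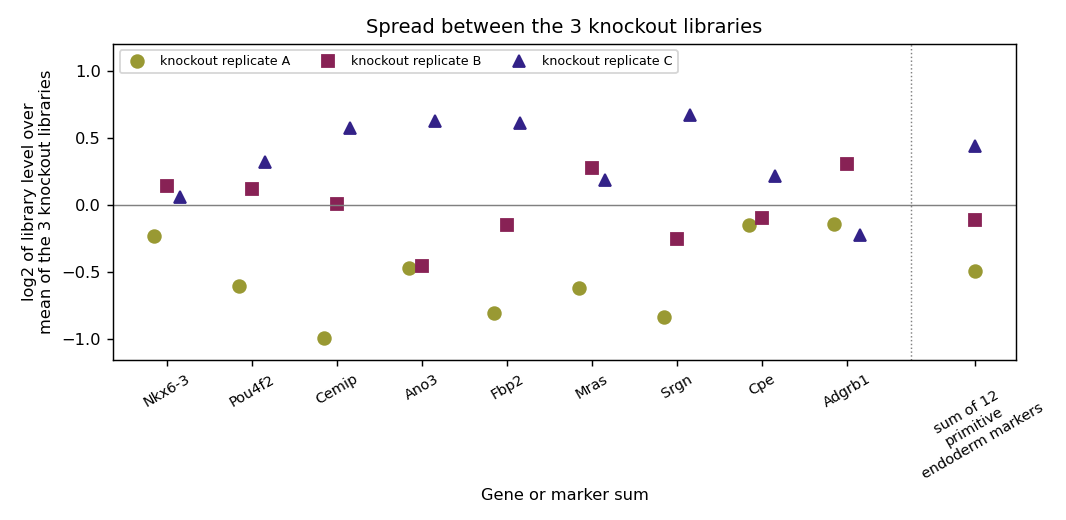
For each of the 9 genes and for the sum of 12 primitive endoderm markers (right of the dotted line), the log2 ratio of each knockout library to the mean of the 3 knockout libraries (vertical axis). Replicate A is lowest for the marker sum and for 8 of the 9 genes, and replicate C is highest for the marker sum and for 6 of them. The share of all tested genes with this order was not counted.

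Markers of tissues in which some of the 9 genes are known were read next. Of all tested genes 13.3% were called, against 14.3% of the tested blood markers and 20% of the tested gastric markers. Of 12 blood markers, listed because Srgn is abundant in blood cells, 7 were tested and 1 rose: Laptm5, a lysosomal membrane protein, from 46.5 ± 10.1 to 131 ± 22.7 CPM (log2 fold change 1.49, adjusted p 1.6e-05, n = 3 each). Ptprc, the pan-leukocyte antigen CD45, had 0 counts in all 6 libraries. The sum of the blood list, 59.6 to 82.5 CPM in WT and 134 to 178 CPM in the knockout, was mostly Laptm5. Of 12 gastric markers, 5 were tested and 1 rose, Barx1 (adjusted p 0.0182, but 0.0670 without WT replicate A and 0.0502 without WT replicate B), and 4 had 0 counts in all libraries. Their sum was 10.6 to 14.5 CPM in WT and 12.7 to 16.4 CPM in the knockout.

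Of 11 tested neuron markers 2 rose and 2 fell (36.4% called, where 13.3% of all tested genes were called). Their median log2 fold change was -0.14, against -0.01 over all tested genes. Stmn2, a microtubule regulator of neurons, fell from 202 ± 11.8 to 108 ± 7.62 CPM (log2 fold change -0.91, adjusted p 1.3e-05), and Nefl, a neurofilament gene on chromosome 14 with 32.8% of its exon bases under Nefm on the opposite strand, rose (1.26, adjusted p 4.8e-05, n = 3 each). The neuron sum was 333 to 353 CPM in WT and 246 to 272 CPM in the knockout. Outside chromosomes 1 and 14, 2 neuron markers were called of 7 tested. Of 5 tested neuroendocrine and 6 tested trophoblast markers 0 were called by edgeR and 0 by DESeq2, with 2 and 0 at an unadjusted p under 0.05. The neuroendocrine sum was 24.5 to 29.5 CPM in WT and 20.2 to 26.4 CPM in the knockout, and the trophoblast sum 21.7 to 31.6 CPM and 22.6 to 33.8 CPM. Of 7 tested fibroblast markers, listed for feeder cells, 2 rose and 1 fell (42.9% called, and 5 genes called without knockout replicate A). Pdgfra, which rose, is also on the primitive endoderm list. The fibroblast sums were 50.02 to 63.4 CPM in WT and 67.9 to 88.9 CPM in the knockout. Col1a1, the main fibrillar collagen of fibroblasts, fell from 12.5 ± 3.27 to 4.49 ± 1.28 CPM (log2 fold change -1.48, adjusted p 0.000912, n = 3 each). The 2 that rose were Pdgfra, from 6.73 ± 2.04 to 18.9 ± 5.22 CPM (1.49, adjusted p 0.000616), and Fbn1. Fbn1 went from 15.2 ± 1.91 to 36.4 ± 7.09 CPM (1.25, adjusted p 8.1e-05, n = 3 each).

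None of the 9 genes lies on chromosome 1 or 14. Of them 3 lie on chromosome 8, the chromosome of Cdh1: Nkx6-3, Cpe and Pou4f2 start 83.5, 41.9 and 28.2 Mb before the start of Cdh1. Chromosome 8 as a whole had a median log2 fold change of 0.01, and 6.12% of its 947 tested genes were called higher, against 7.6% of all tested genes. The other 6 chromosomes with a member had medians between -0.02 and 0.03.

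Neighbouring genes were read from the same fit to see whether the difference extended along the chromosome. Within 500 kb of the 9 start sites lay 95 other tested genes, of which 14 rose and 5 fell. That is 20% called, where 13.3% of all tested genes were called, 7.6% higher and 5.71% lower. The median log2 fold change of the 95 was 0.02. The count was 12 without WT replicate C.

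Around Nkx6-3, 3 of 12 tested neighbours rose and 1 fell. The nearest, Gm15816, is a noncoding gene on the minus strand whose start lies 3.68 kb away. It had 7, 0 and 1 counts in WT and 22, 21 and 35 counts in the knockout (log2 fold change 3.29, adjusted p 0.00781, but 0.0532 without knockout replicate C and 0.0512 without WT replicate C). With so few WT counts its fitted fold change is no bound, and it ran from 2.76 without WT replicate B to 5.38 without WT replicate A. Of its exon bases 49.2% lie opposite exons of Ank1, and how the counting treated strand is not given in the sources used here, so reads of the pair may not be fully separated. Ank1, which encodes an ankyrin of the membrane skeleton, rose from 1.86 ± 0.140 to 5.22 ± 0.288 CPM (log2 fold change 1.48, adjusted p 0.00127). On the other side Gpat4, an enzyme of glycerolipid synthesis 55.1 kb away, was at 79.1 ± 4.66 CPM in WT and at 88.7 ± 4.72 CPM in the knockout and was not called (adjusted p 0.261). Sfrp1, a secreted inhibitor of Wnt ligands 258 kb away, was at 164, 162 and 168 CPM in WT and at 277, 319 and 328 CPM in the knockout (0.91 as log2 fold change, adjusted p 1.1e-05). Ap3m2, 348 kb on the other side, fell from 24.7 ± 1.40 to 13.3 ± 2.66 CPM (log2 fold change -0.89, adjusted p 0.00125; n = 3 in each group throughout).

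Around Pou4f2, 0 of 5 tested neighbours were called by edgeR or by DESeq2, and 0 had an unadjusted p under 0.05. The nearest on either side were Ttc29 (log2 fold change -0.24, adjusted p 0.836) and Gm2225 (0.39, adjusted p 0.491). Ano3 had no tested neighbour within 500 kb, and the nearest beyond it, Ccdc34 (0.08, adjusted p 0.722) and Gm13929 (1.81, adjusted p 0.0634), were not called. Around Cemip 1 of 10 rose, Mesd, a chaperone of LRP receptors of the Wnt pathway, from 47.4 ± 1.32 to 69.2 ± 3.30 CPM (log2 fold change 0.55, adjusted p 0.00103, n = 3 each). The nearest on either side, Gm49493 (0.15, adjusted p 0.883) and Abhd17c (-0.03, adjusted p 0.901), were not called.

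Around Cpe, 1 of 7 rose and 2 fell. Tll1, a secreted metalloprotease gene 487 kb away, was at 2.25, 3.33 and 3.50 CPM in WT and 4.97, 11.6 and 11.3 CPM in the knockout (1.62 as log2 fold change, adjusted p 0.00241). Apela, the gene of a peptide ligand of the apelin receptor, fell from 9.74 ± 1.76 to 3.04 ± 0.795 CPM (log2 fold change -1.69, adjusted p 0.000325, n = 3 each), and 29.6% of its exon bases are shared with Gm45886 on the same strand. Trim61 had 18, 10 and 12 counts in WT and 0, 2 and 0, under the floor of 6, in the knockout (adjusted p 0.00621). Msmo1, a sterol synthesis enzyme 40.7 kb from Cpe, missed the threshold (log2 fold change 0.26, adjusted p 0.319). Genes beside Cpe thus differed in both directions.

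Around Srgn, 5 of 23 rose and 1 fell. Hkdc1 and Hk1, neighbouring hexokinase genes 105 and 148 kb from Srgn, both rose. Hkdc1 was at 1.35, 2.93 and 1.30 CPM in WT and at 5.09, 4.46 and 9.28 CPM in the knockout (1.75 as log2 fold change, adjusted p 0.00486), and Hk1 rose from 111 ± 13.6 to 160 ± 26.6 CPM (0.53, adjusted p 0.00862, n = 3 each). Between these and Srgn lies Vps26a, which missed the threshold (log2 fold change 0.06, adjusted p 0.727), and Kif1bp on the far side was not called either (0.27, adjusted p 0.115). Ddx21, an RNA helicase 74.8 kb away, fell by 0.33 on the log2 scale (adjusted p 0.0214, but 0.0945 without WT replicate A, and lost in 4 of the 6 fits without 1 library). Tspan15 rose by 0.51 (adjusted p 0.0403, lost in 5 of those fits, 0.137 without WT replicate A).

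Around Mras, 3 of 11 rose. Esyt3, a membrane tether protein gene 78.9 kb away, was at 19.4, 22.7 and 22.8 CPM in WT and at 36.0, 36.5 and 37.2 CPM in the knockout (0.76 as log2 fold change, adjusted p 0.000428). Foxl2 and its antisense gene Foxl2os, 482 kb away, had log2 fold changes of 1.30 and 1.26 (adjusted p 0.0323 and 0.0266), lost in 6 and 5 of the 6 fits without 1 library, with 0.100 for Foxl2 and 0.0909 for Foxl2os without WT replicate C. Armc8, on the other side, missed the threshold (log2 fold change -0.02, adjusted p 0.916). Around Fbp2, 1 of 17 was called, 2010111I01Rik, which fell by 0.65 on the log2 scale (adjusted p 0.0141, but 0.0717 without WT replicate A), while the nearest on either side, Gm5141 (-0.12, adjusted p 0.779) and Fbp1, were not called. Around Adgrb1, 1 of 10 rose, Arc, an activity-regulated gene of neurons, by 0.51 (adjusted p 0.0441, but 0.169 without WT replicate B). Gm15387 (0.34, adjusted p 0.540) and Mroh4 (-1.43, adjusted p 0.150), the nearest on either side, were not called.

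**Figure D4:**
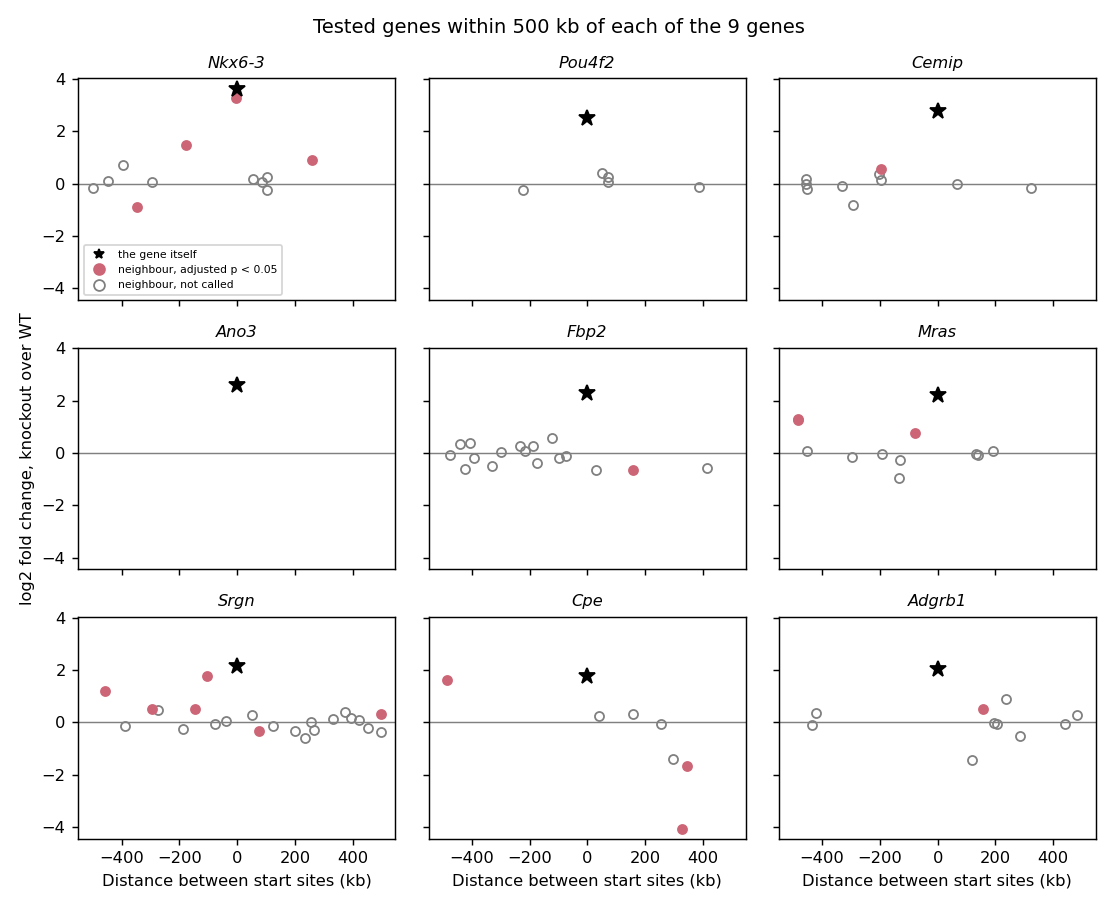
Log2 fold change, knockout over WT, of tested genes (vertical axis) against the distance of their start from the start of each of the 9 genes (horizontal axis, kb). Stars are the 9 genes, filled circles genes with an adjusted p under 0.05 (19 of 95) and open circles the others.

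Close relatives of the 9 genes were compared next. Nkx6-2, a sister of Nkx6-3, was at 3.78, 4.85 and 3.75 CPM in WT and at 7.96, 10.2 and 9.69 CPM in the knockout (a log2 fold change of 1.17 with an adjusted p of 0.00157). Nkx6-1 had at most 12 counts in any library and was not tested. Of the POU4 relatives, Pou4f1 on chromosome 14 (log2 fold change 0.51, adjusted p 0.179) and Pou4f3 (0.23, adjusted p 0.797) were not called. Cemip2, a hyaluronan-degrading membrane protein, was at 79.3 CPM in WT and at 63.8 CPM in the knockout (-0.31 as log2 fold change, adjusted p 0.0918).

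Fbp1, the liver form of the enzyme and the direct neighbour of Fbp2 at 29.9 kb, was at 0.755 ± 0.327 CPM in WT and at 0.479 ± 0.224 CPM in the knockout (-0.63 as log2 fold change, adjusted p 0.525, n = 3 each). Rras (-0.22, adjusted p 0.348) and Rras2 (-0.05, adjusted p 0.794), the closest relatives of Mras, were not called, nor were the carboxypeptidases Cpd (0.22, adjusted p 0.164) and Cpm (0.46, adjusted p 0.175). Adgrb2 (-0.10, adjusted p 0.687) was not called, and neither was Adgrb3 on chromosome 1 (-1.79, adjusted p 0.113), which had 36, 35 and 16 counts in WT and 14, 10 and 0 in the knockout. Of 11 tested relatives, Nkx6-2 alone passed the test. Of all tested genes 13.3% were called, so 1 call among 11 is near the general share. Whether a member differed from its relative in response was not tested.

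Lists of partners placed each gene in its pathway. In these lists the share called is read against 13.3% of all tested genes, and no list was tested as a set. Of 12 tested NK homeobox genes besides Nkx6-3, 2 rose and 0 fell (16.7% called, median log2 fold change 0.16; 4 called without knockout replicate A and 1 without WT replicate B). These were Nkx6-2 and Barx1. Of 15 tested POU4 relatives and retinal ganglion cell factors, 2 rose and 2 fell (26.7%, median 0.23; 0 called without WT replicate A, 1 without knockout replicate B and 2 without knockout replicate C). Irx2 rose by 0.89 and Ebf1 fell by 1.32 on the log2 scale (adjusted p 0.0167 and 0.0139, 0.0873 and 0.0717 without WT replicate A). Sox11, a SOX factor of neural progenitors, fell by 0.45 (adjusted p 0.0136, but 0.0839 without WT replicate B).

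Genes of hyaluronan metabolism, the substrate of Cemip, moved in both directions. Of 20 tested, 3 rose and 2 fell (25.0%, median -0.01; 1 called without either of WT replicates A and B, 2 without knockout replicate B and 3 without knockout replicate C). Hapln4, a protein that links hyaluronan to proteoglycans, was at 13.6, 14.3 and 18.2 CPM in WT and at 31.5, 21.7 and 25.3 CPM in the knockout (0.77 as log2 fold change, adjusted p 0.00493), and kept its call in all 6 fits without 1 library. Has2, a hyaluronan synthase, fell from 3.42 ± 0.838 to 1.60 ± 0.318 CPM (log2 fold change -1.1, adjusted p 0.0357, n = 3 each), a call lost in 5 of those fits (0.177 without WT replicate A). Itih5, whose product binds hyaluronan, fell by 1.36 (adjusted p 0.0275, 0.132 without WT replicate B). Hyal1, a lysosomal hyaluronidase that shares 22.8% of its exon bases with genes on the same strand, rose by 0.63 (adjusted p 0.0306, 0.13 without WT replicate B). Hyal2, another hyaluronidase, rose from 20.5 to 28.5 CPM (log2 fold change 0.48, adjusted p 0.0404). Its own call was not followed over the fits without 1 library. Cd44, the main hyaluronan receptor, was at 2.47 CPM in WT and at 0.926 CPM in the knockout and was not called (adjusted p 0.0525). Both Hyal2 and Cd44 were named after their values were seen.

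Of 6 tested anoctamins besides Ano3, 0 were called by edgeR or DESeq2 and 0 had an unadjusted p under 0.05. Their median log2 fold change was 0.25, and they ranged from -0.31 to 0.60. Of 17 tested genes of glucose synthesis and fructose bisphosphate turnover, the route of Fbp2, 1 rose and 0 fell (5.88%, median 0.14; 4 called without knockout replicate A, 2 without WT replicate C, and 0 without each of the other 4 libraries). That gene was Pck2, the mitochondrial carboxykinase, on chromosome 14 (log2 fold change 0.55, adjusted p 0.0177, 0.0952 without WT replicate B).

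Of 31 RAS relatives and genes of the SHOC2 route, 2 rose and 2 fell (12.9%, median -0.05; 1 called without any 1 of WT replicates A and B and knockout replicates B and C). Shoc2, the partner of Mras, was at 64.2 CPM in WT and at 68.5 CPM in the knockout (adjusted p 0.616, named after its values were seen). The RAF kinases went separate ways: Araf was at 71.9, 67.8 and 57.6 CPM in WT and at 142, 125 and 108 CPM in the knockout (0.93 as log2 fold change, adjusted p 8.1e-05), while Braf fell by 0.40 (adjusted p 0.0172, 0.104 without WT replicate B). Rasgrp1, an exchange factor for RAS, fell by 1.01 (adjusted p 0.0393, 0.168 without WT replicate A).

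The proteoglycan and glycosaminoglycan list, which surrounds Srgn, had 7 of 40 tested genes higher and 1 lower (20%, median 0.16, and 5 called of 34 without chromosomes 1 and 14). Ndst2, a heparan and heparin sulfotransferase on chromosome 14, rose from 14.6 ± 2.29 to 31.0 ± 2.48 CPM (log2 fold change 1.09, adjusted p 0.000114). Chst11, which sulfates chondroitin, rose from 12.7 ± 0.884 to 22.6 ± 4.77 CPM (0.84, adjusted p 0.00255), and Gpc3, a cell-surface heparan sulfate proteoglycan, fell from 114 ± 9.17 to 55.2 ± 12.2 CPM (-1.05, adjusted p 0.000127; n = 3 each). Gpc6, also on chromosome 14, rose by 0.94 (adjusted p 0.0126, 0.0596 without WT replicate A).

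Of 26 tested genes of granule cargo and prohormone processing, the route of Cpe, 6 rose and 1 fell (26.9%, median 0.26; 4 called without WT replicate B). Vgf, a neuropeptide precursor, was at 9.27, 7.98 and 7.40 CPM in WT and at 1.44, 1.22 and 1.21 CPM in the knockout (-2.67 as log2 fold change, adjusted p 8.5e-06). Pcsk1n, an inhibitor of a prohormone convertase, rose from 15.2 ± 1.90 to 35.1 ± 5.90 CPM (1.2, adjusted p 7.3e-05), and Pcsk6, a convertase, from 48.3 ± 9.89 to 106 ± 25.3 CPM (1.13, adjusted p 0.000314; n = 3 each). Agbl2, a carboxypeptidase of tubulin, rose by 0.92 (adjusted p 0.0374), a call lost in each of the 6 fits without 1 library (0.156 without WT replicate A).

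Of 16 tested adhesion receptors related to Adgrb1, 2 rose and 2 fell (25.0%, median -0.04; 2 called without any 1 of WT replicates A and C and knockout replicates B and C). Celsr1, an atypical cadherin receptor of planar polarity, was at 47.0, 47.1 and 49.8 CPM in WT and at 90.9, 91.2 and 101 CPM in the knockout (0.97 as log2 fold change, adjusted p 8.5e-06). Adgrg6 rose from 1.65 ± 0.319 to 5.79 ± 0.910 CPM (1.81, adjusted p 0.000459, n = 3 each). Adgrf5 fell by 1.75 (adjusted p 0.0153, 0.0738 without knockout replicate B) and Adgrv1 by 0.45 (adjusted p 0.0298, 0.138 without WT replicate B).

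Partners of Adgrb1 and genes of apoptotic cell uptake had the largest share called among the lists of partners, 8 higher and 4 lower of 30 tested (40%, median 0.16; 11 or 12 called in every fit without 1 library). Abca1, a lipid exporter, was at 9.9, 14.04 and 12.5 CPM in WT and at 29.7, 59.1 and 59.8 CPM in the knockout (2.03 as log2 fold change, adjusted p 3.6e-05). Lrp1, a large endocytic receptor, rose from 197 ± 18.2 to 407 ± 21.4 CPM (1.05, adjusted p 5.2e-06). The exchange factor Dock2 fell from 2.78 ± 0.269 to 0.480 ± 0.264 CPM (-2.55, adjusted p 0.00110), and the uptake receptor Axl from 15.7 ± 0.615 to 7.39 ± 1.56 CPM (-1.09, adjusted p 0.000849; n = 3 each). Elmo1, which couples Adgrb1 to Dock proteins, fell from 17.2 ± 1.95 to 8.39 ± 0.554 CPM (log2 fold change -1.04, adjusted p 0.000408, n = 3 each), and was named after its values were seen. Elmo1 and Dock2 were among the 4 genes of the list called lower, against 8 called higher, so they do not stand for the list.

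**Figure D5:**
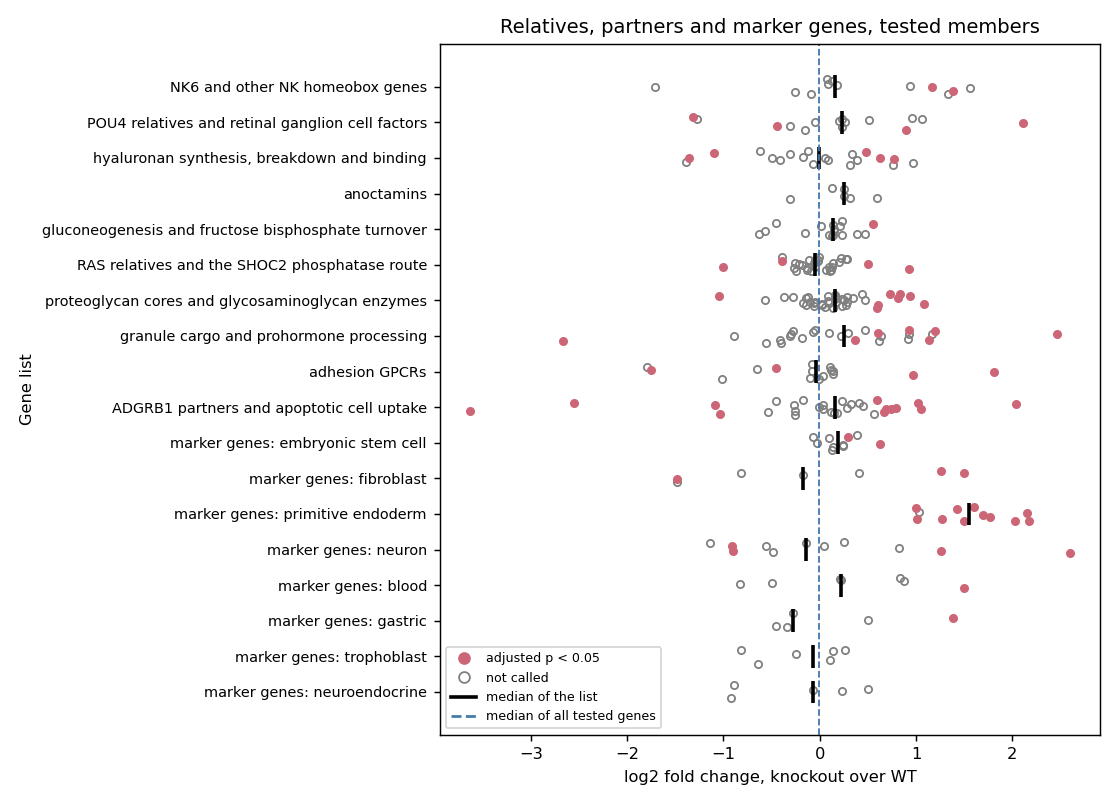
Log2 fold change, knockout over WT (horizontal axis), of tested genes in each list of relatives, partners and markers (vertical axis); filled circles passed an adjusted p of 0.05, bars are list medians and the dashed line is the median of all tested genes. The primitive endoderm markers stand apart with a median of 1.55, and the medians of the 10 partner lists lie between -0.05 and 0.26.

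For each of the 9 genes the 2 most similar patterns were sought among 12833 other tested genes averaging 50 counts or more. Likeness was the Euclidean distance, over 6 libraries, of log2 CPM after subtracting the WT mean, so that a smaller value is more alike. Since the 9 genes were picked for a large difference, other strong risers were bound to be found. Cpe was closest to Bmp4 (distance 0.23), Mras to Inhbb (0.44), Adgrb1 to Mdga1 (0.55), Srgn to Sox17 (0.65), Ano3 to Sox7 (0.72), Fbp2 to Sox17 (0.96), Pou4f2 to Abca1 (1.003), Cemip to Abca1 (1.19) and Nkx6-3 to Sox7 (2.59). The second were Col4a2 for Cpe, Rapgef3 for Mras, Islr2 for Adgrb1, AA414768 for Srgn, Tgm1 for Ano3 and Nkx6-3, Nxf7 for Fbp2, and Sox17 for Pou4f2 and Cemip. Sox7, Tgm1 and Bmp4 lie on chromosome 14, and Sox17 and Inhbb on chromosome 1. The distances of Nkx6-3 were the largest of the 9. Among the members themselves the closest pair was Pou4f2 and Cemip (0.54).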

How the data were processed

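The labels and titles gave 3 WT and 3 Cdh1 knockout libraries, made from TRIzol-extracted total RNA with a directional kit, per the labels' protocols. The deposited values are unnormalized read counts for each gene in a single table, with exon length as another column. Cutadapt 2.10, STAR 2.7.5b, featureCounts 2.0.1 and the build GRCm38 are named in the submitters' processing notes, without their settings. The annotation and the strand setting of the counting are not given in the sources used here. Of 55401 identifiers, 55141 received a symbol from the GENCODE-based name table.

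The test was edgeR 4.0.16 (R 4.3.3). Low genes were removed by filterByExpr (smallest count 10, smallest total 15), scaled by TMM and fitted with glmQLFit and glmQLFTest on genotype alone. P-values were adjusted by Benjamini-Hochberg over 17325 genes and called under 0.05. The fit was tested on simulated data for the same comparison (16939 genes fitted): of 100 genes changed 2-fold 64 were recovered, and of 100 changed 4-fold 89, with 9 false calls.

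Between 78.1% and 83.1% of counts from 1 to 10 were even, so counts divided by 2 were an alternative, beside other scaling, no filter, DESeq2, a replicate block, a stricter threshold, other windows and leaving out each library. The 9 genes, the lists and the rules were chosen with earlier results of these data known. Named genes were the 9, Cdh1, 12 relatives, up to 4 called genes per list by fold change (mean of at least 20 counts, separated groups), the nearest tested neighbours, called neighbours within 500 kb (up to 4 per member) and the 2 most similar genes per member. Protein features were not analysed here. Promoters came from RefSeq. The precision of low levels is limited by counting: 6 counts correspond to between 0.262 and 0.332 CPM, counting error only.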

Additional observations from a re-analysis of the deposited data

How the results depend on the processing

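Each of the 9 genes stayed higher in the knockout under every alternative run: other scaling (RLE, library totals), no low-count filter, DESeq2 1.42.0, the replicate letter as a block, counts divided by 2 and the fits without 1 library. Their selection for a large rise in these same libraries largely fixed that direction, so it is no support for the rise. None of their values moved by more than the SD between replicates. The 18 pairs of most similar genes were the same with a prior count of 0.5.

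Counts of called genes moved more. Over all tested genes, 1317 were called higher and 990 lower. An adjusted p under 0.01 gave 782 and 460, and leaving out 1 library gave 842 to 1560 higher and 532 to 1224 lower. The 19 called neighbours of 95 became 12 at an adjusted p under 0.01, and 12 to 21 without 1 library. A window of 250 kb held 9 called of 47 tested (19.1%), and 1000 kb held 26 of 157 (16.6%), beside 20% within 500 kb. At an adjusted p under 0.01 the lists had 1 called gene (NK homeobox), 0 (POU4 and retinal), 1 (hyaluronan), 0 (glucose synthesis), 1 (RAS), 4 (granule), 2 (adhesion receptors), 1 (stem cell markers) and 0 (gastric markers). Without the low-count filter there were 4 NK homeobox genes, 1 anoctamin, 3 of glucose synthesis, 5 stem cell markers and 1 neuroendocrine marker. DESeq2 called 2 of glucose synthesis. With the replicate letter as a block 3 of glucose synthesis, 4 stem cell markers and 1 neuroendocrine marker were called. Without chromosomes 1 and 14, an alternative chosen after seeing the data, 0 of glucose synthesis, 5 of proteoglycans and 2 neuron markers were called.

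Leaving out 1 library gave 1 to 4 called NK homeobox genes, 0 to 4 POU4 and retinal genes, 1 to 4 hyaluronan genes, 0 to 4 of glucose synthesis, 1 to 5 of the RAS list, 4 to 6 granule genes, 2 to 5 adhesion receptors, 1 to 4 stem cell markers, 3 to 5 fibroblast markers, 0 to 1 gastric markers and 0 to 1 neuroendocrine markers. Of 60 called genes that the rule for named genes picked, not all of them named in the text, 37 kept their call in all 6 fits without 1 library. Uncalled genes whose log2 fold change turned sign without 1 library were Armc8 (-0.060 to 0.019, and 0.0064 with no filter), Ttc29 (-0.62 to 0.42), Abhd17c (-0.079 to 0.075), Rras2 (-0.12 to 0.042), Gm5141 (-0.20 to 0.075) and Gm49493 (-0.089 to 0.34). The cause was not tested.

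The letters A, B and C matched the libraries only in part. Deviations from the genotype means correlated across genes, which are not independent, at 0.14 for A, -0.03 for B and 0.23 for C. For A and C the pair of the same letter had the highest correlation, but WT replicate B was closest to knockout replicate A (0.12). The labels do not state whether a letter marks a shared culture or day.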
